A study of Mus musculus with 12 samples.

Results

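Trp53, which encodes the tumour suppressor p53, Cdkn2a, which encodes the p53-stabilising protein p19Arf, and a set of classic p53 target genes were followed through RNA-seq and Ribo-seq of mouse Myc lymphomas. The genes were chosen by name, with earlier results of these data known. They are Trp53 and Cdkn2a, with those of Cdkn1a, Mdm2, Ccng1, Bax, Bbc3, Phlda3, Eda2r and Zmat3 that could be matched to a transcript. The deposited table identifies its 20561 transcripts by number only, and the study's supplementary lists pair 2596 of them with 1 gene name each. Of the 10 genes sought, 5 could be matched, namely Trp53 (ENSMUST00000108658), Cdkn2a (ENSMUST00000107131), Bbc3 (ENSMUST00000002152), Ccng1 (ENSMUST00000020576) and Bax (ENSMUST00000033093). Cdkn1a, Mdm2, Phlda3, Eda2r and Zmat3 were not paired with a transcript and were not analysed here, so the cell cycle inhibitor p21 and the p53 antagonist Mdm2 carry no value below.

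The 12 libraries came from untreated lymphoma B cells of genotype Eμ-Myc/+ or Eμ-Myc/+ Prps2null, with 3 biological replicates per genotype in each assay. Eμ-Myc is a transgene that drives Myc from the immunoglobulin heavy chain enhancer, so it is active in B lineage cells, and both groups carry it. Prps2null lacks a working copy of Prps2, an enzyme that makes the ribose phosphate donor for nucleotide synthesis. The libraries compare lymphomas that arose with and without Prps2. The labels describe allografts, in which frozen lymphoma stocks were injected into the tail veins of C57BL/6 males aged 8 weeks and B cells were purified from lymph node suspensions. The sequencing methods speak only of cells harvested from tumour-bearing mice of each genotype, so whether the samples were allografts or primary lymphomas is not settled by the sources. The labels do not say how many stocks the replicates came from, so the errors and p-values below measure the spread between these samples. A difference between stocks and a difference between genotypes cannot be told apart. Any mice that received the cells have their own Trp53 and Cdkn2a, and any host cells left after purification would contribute reads.

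The p53 protein is a transcription factor that activates genes for cell cycle arrest and apoptosis. Mdm2 marks it for degradation, and p19Arf, which oncogenic Myc induces, blocks Mdm2. p53 in turn holds Cdkn2a down, and tumours that have lost p53 function are known for high Arf. Lesions of the Arf, Mdm2 and p53 axis are a well known feature of Eμ-Myc lymphomas. The Cdkn2a locus also encodes p16Ink4a, an inhibitor of Cdk4 and Cdk6, from another start exon that joins the same later exons. The table keeps 1 transcript per gene, so its Cdkn2a count cannot separate p19Arf from p16Ink4a.

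In GRCm38.p6 the 5 genes lie at chr11:69580348-69591873 (Trp53), chr4:89274473-89294619 (Cdkn2a), chr7:16308398-16318334 (Bbc3), chr11:40748552-40755309 (Ccng1) and chr7:45461695-45466903 (Bax). No other gene of the RefSeq annotation overlaps any of them. The windows from 250 bases before to 30 bases after each annotated start were searched on both strands for the E-box CACGTG, the usual Myc motif, and for the consensus decamer of p53, which binds DNA as a tetramer on a pair of such decamers. Of 32851 windows of this length, 6.79% held the E-box and 7.84% the decamer. The 3 windows of matched genes that hold a decamer are shown with both motifs in capitals, from 5′ to 3′ on the strand of the gene.
Trp53, chr11:69580109-69580388, plus strand: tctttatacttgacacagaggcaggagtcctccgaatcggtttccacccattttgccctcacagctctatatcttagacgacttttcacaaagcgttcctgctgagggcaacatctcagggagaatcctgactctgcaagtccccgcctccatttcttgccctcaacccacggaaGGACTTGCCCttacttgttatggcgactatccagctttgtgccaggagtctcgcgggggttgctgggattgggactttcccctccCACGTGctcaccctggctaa
Ccng1, chr11:40755257-40755536, minus strand: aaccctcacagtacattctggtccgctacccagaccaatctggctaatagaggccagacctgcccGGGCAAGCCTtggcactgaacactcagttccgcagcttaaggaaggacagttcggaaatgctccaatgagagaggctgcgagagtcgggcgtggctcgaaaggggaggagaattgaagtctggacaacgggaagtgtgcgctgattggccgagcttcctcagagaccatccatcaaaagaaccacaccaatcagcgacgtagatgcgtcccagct
Bax, chr7:45466869-45467148, minus strand: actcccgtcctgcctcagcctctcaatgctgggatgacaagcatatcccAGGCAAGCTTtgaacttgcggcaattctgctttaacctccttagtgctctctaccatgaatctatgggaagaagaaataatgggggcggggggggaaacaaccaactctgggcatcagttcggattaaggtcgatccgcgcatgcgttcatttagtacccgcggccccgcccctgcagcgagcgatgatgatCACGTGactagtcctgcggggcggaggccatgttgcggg
Trp53 has the E-box at position 11 and the decamer at -75 from the start, Ccng1 has a decamer at -185, and Bax has an E-box at -9 and a decamer at -201. Bbc3 has 3 annotated starts, of which 1 window held an E-box at -64 and none a decamer, and neither motif was found in the windows of the 2 Cdkn2a starts. A match is a description of the letters and was not tested for binding.

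Ribo-seq counts the mRNA stretches that ribosomes shield from nuclease, called footprints. Levels are given as normalised CPM, which is the count as a share of a library size corrected by median-of-ratios scaling within the assay. It is not divided by transcript length, so levels are compared between libraries and never between genes. Fold changes are log2 values of Eμ-Myc/+ Prps2null against Eμ-Myc/+. RNA-seq libraries held 4135908 to 6648829 counts and Ribo-seq libraries 975023 to 2792929. The targeted gene was read first. Prps2 RNA stood at 68.8, 66.0 and 61.3 normalised CPM in Eμ-Myc/+ replicates 1, 2 and 3 and at 10.3, 7.51 and 8.16 in Eμ-Myc/+ Prps2null replicates 1, 2 and 3. Its footprints went against the label in 2 Ribo-seq libraries. They were at 163.5 and 133.4 for replicates 1 and 2 under the Eμ-Myc/+ label but 7.92 for replicate 3, and at 5.05 and 9.44 for replicates 1 and 3 under the Eμ-Myc/+ Prps2null label but 140.3 for replicate 2. Ribo-seq values are therefore given by label, with replicates 1, 2 and 3 in that order unless a range is given. Fold changes are given again without both of these libraries, which leaves 2 against 2. Because these libraries were picked by their Prps2 footprints, errors without both leave out the spread that they bring. This matters most for genes that split the libraries as Prps2 does.

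The way the genes received their names bears on every direction below. The study's lists were built from this same contrast: 1 holds genes raised in RNA and footprints, which named Cdkn2a, and the others rest on raised translation efficiency (footprints relative to RNA), which named Trp53, Bbc3, Ccng1 and Bax. All 232 tested transcripts named through the first kind had an RNA log2 fold change above 0, with a median of 1.56. In Ribo-seq, none of the 177 tested had a log2 fold change under 0 by label. Of the 2363 tested transcripts named only through the second kind, 98.7% had an RNA log2 fold change under 0, with a median of -1.04. A gene named through the second kind was thus nearly bound to be lower in RNA. A gene named through the first kind, like Cdkn2a, was nearly bound to be higher in RNA and in footprints by label. The RNA values of the named genes, and the footprint values of Cdkn2a, are descriptions with no test. Over all 14682 transcripts tested by edgeR's quasi-likelihood test, 18.5% were lower and 14.7% higher in Eμ-Myc/+ Prps2null at an adjusted p under 0.05, and the 3 libraries of each genotype did not overlap in 26.2% (lower) and 23.5% (higher). The split of calls was 2712 lower and 2163 higher, but 1668 lower and 3851 higher with library totals as the scaling, and the 4875 calls became 2724 without Eμ-Myc/+ replicate 1 and 3243 without Eμ-Myc/+ replicate 3.

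Trp53 RNA was at 16 reads or fewer in every Eμ-Myc/+ Prps2null library. It stood at 155.7, 131.1 and 123.0 normalised CPM in Eμ-Myc/+ replicates 1, 2 and 3 (638, 805 and 546 reads) and at 3.20, 2.67 and 1.85 in Eμ-Myc/+ Prps2null replicates 1, 2 and 3 (14, 16 and 10 reads). Every Eμ-Myc/+ library was far above every Eμ-Myc/+ Prps2null library, with means of 136.6 ± 17.0 and 2.57 ± 0.68 (SD, n = 3), so that 1.88% of the Eμ-Myc/+ level remained. The log2 fold change was -5.73 (SE 0.26), the 2nd lowest of the 14682 transcripts tested. In these bulk samples, fewer cells that express a gene and less RNA per cell cannot be told apart. The single count per transcript does not show which exons the remaining reads cover.

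Trp53 footprints split the Ribo-seq libraries the way Prps2 footprints did. Libraries with the Eμ-Myc/+ label had 639.2, 583.1 and 8.95 normalised CPM, and libraries with the Eμ-Myc/+ Prps2null label 8.42, 546.8 and 16.7. The high libraries are replicates 1 and 2 of the first label and replicate 2 of the second, so the labelled groups overlap. The library labelled Eμ-Myc/+ Prps2null replicate 2 held 530 Trp53 footprints, whereas the RNA-seq library of the same label and number held 16 reads. Conversely, the library labelled Eμ-Myc/+ replicate 3 held 26 footprints against 546 reads in RNA-seq. By label the log2 fold change was -1.13 (SE 1.68), and without both libraries it was -5.59 (SE 0.20).

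Cdkn2a ran the other way. Its RNA stood at 5.37, 2.61 and 3.83 normalised CPM in Eμ-Myc/+ replicates 1, 2 and 3 (22, 16 and 17 reads) and at 56.7, 71.7 and 71.8 in Eμ-Myc/+ Prps2null replicates 1, 2 and 3 (248, 430 and 387 reads). No library of one genotype reached the range of the other, and the means were 3.94 ± 1.38 and 66.7 ± 8.7 (SD, n = 3). Its log2 fold change of 4.12 (SE 0.27) was the 21st highest of all transcripts tested. The 232 transcripts named through the same kind of list had a median of 1.56. Trp53 and Cdkn2a lay near opposite ends of the RNA contrast, but they were chosen with earlier results of these data known, so their ranks are a description.

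Cdkn2a footprints were the mirror image of those of Trp53. Libraries with the Eμ-Myc/+ label had 19.7, 34.4 and 188.0 normalised CPM, and libraries with the Eμ-Myc/+ Prps2null label 226.9, 36.1 and 210.9. Again the library labelled Eμ-Myc/+ replicate 3 stood with 2 libraries of the other label, and that labelled Eμ-Myc/+ Prps2null replicate 2 with 2 of the first. This gave a log2 fold change of 0.92 (SE 0.91) by label and 3.02 (SE 0.21) without both. The 177 transcripts tested in Ribo-seq and named through the same kind of list had medians of 0.71 by label and 3.23 without both. None of the 177 was under 0 in either setting, a direction that their naming favours.

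**Figure D1:**
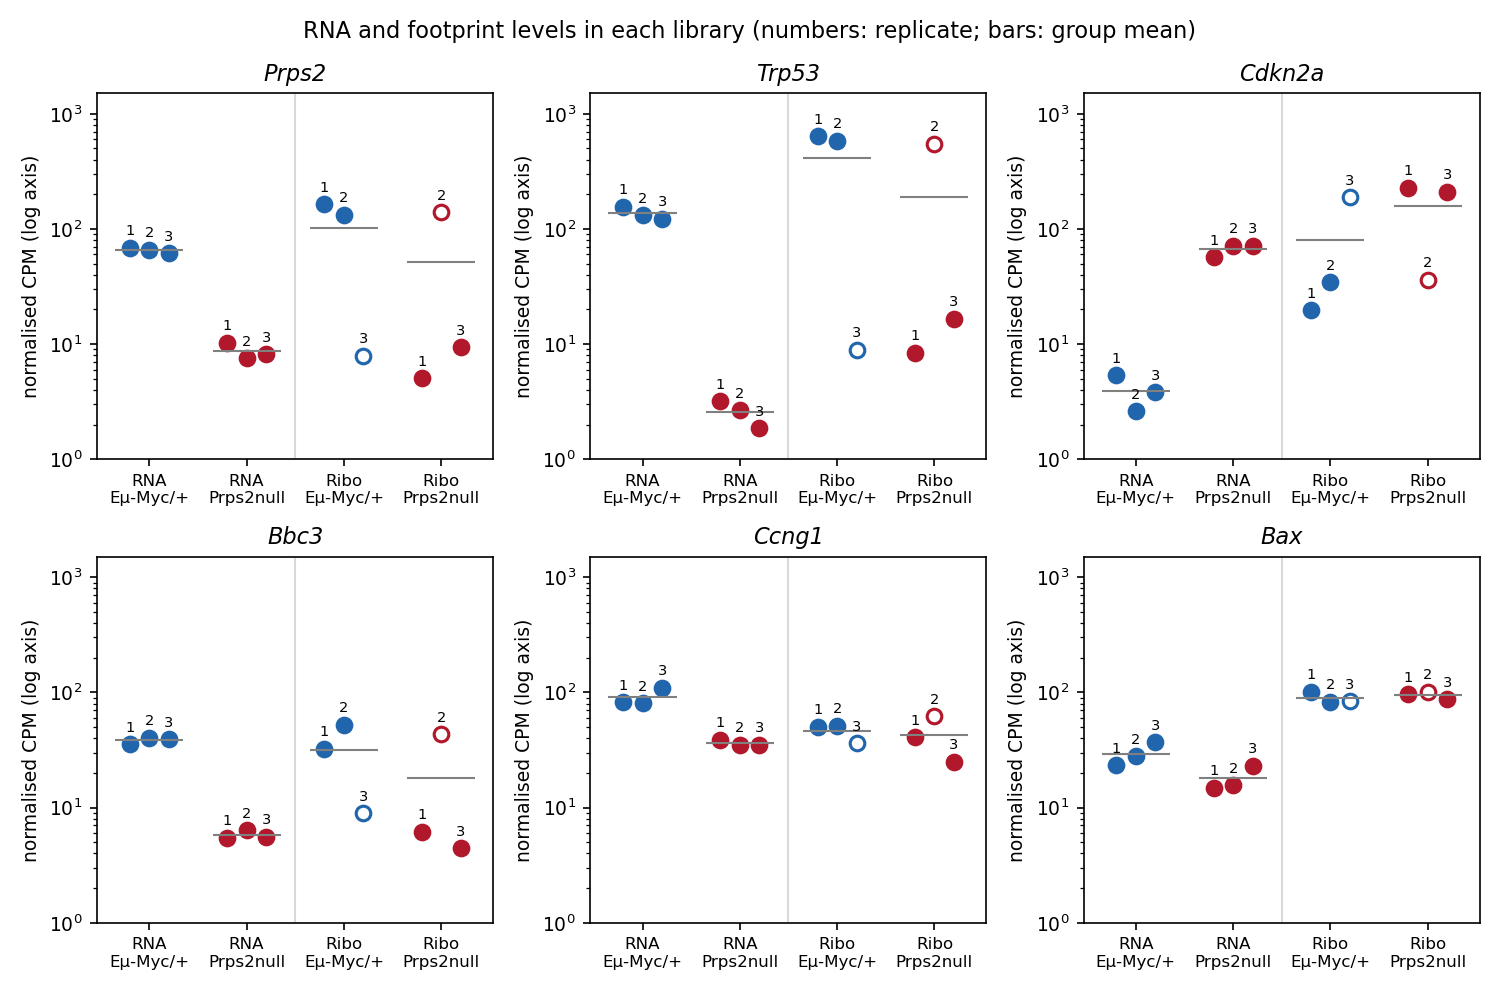
Normalised CPM (log axis) of Prps2, Trp53, Cdkn2a, Bbc3, Ccng1 and Bax in each RNA-seq and Ribo-seq library, by labelled genotype (blue Eμ-Myc/+, red Eμ-Myc/+ Prps2null), with replicate numbers above the points and grey bars for group means (n = 3). Open points are the 2 Ribo-seq libraries whose Prps2 footprints go against their labels. They change sides for Trp53, Cdkn2a and Bbc3, and over a smaller range for Ccng1, while the footprints of Bax lie between 82.9 and 101.4 in all 6 libraries.

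Of the 3 matched p53 targets, Bbc3 differed most between the genotypes in RNA. Bbc3 encodes Puma, a BH3-only protein that p53 induces to trigger apoptosis. Its RNA stood at 35.6, 40.2 and 39.2 normalised CPM in Eμ-Myc/+ replicates 1, 2 and 3 and at 5.48, 6.34 and 5.56 in Eμ-Myc/+ Prps2null replicates 1, 2 and 3. The groups were far apart and tight, with a log2 fold change of -2.72 (SE 0.23). That is the 98th lowest of all transcripts tested and the 71st lowest of the 2363 named through the translation efficiency lists. Bbc3 footprints numbered 33, 52 and 26 under the Eμ-Myc/+ label and 11, 42 and 8 under the Eμ-Myc/+ Prps2null label. In normalised CPM these were 32.5, 52.5 and 8.95 against 6.18, 43.3 and 4.44, with the same 3 libraries high as for Trp53. For Bbc3 footprints the log2 fold change was -0.85 (SE 0.98) by label and -2.98 (SE 0.39) without both.

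Ccng1 encodes cyclin G1, a p53-induced partner of a protein phosphatase that acts back on Mdm2. Its RNA stood at 82.2, 80.6 and 109.7 normalised CPM in Eμ-Myc/+ replicates 1, 2 and 3 and at 38.8, 35.2 and 35.2 in Eμ-Myc/+ Prps2null replicates 1, 2 and 3, with no overlap. The log2 fold change of -1.32 (SE 0.19) was the 733rd lowest of the 2363, so 732 transcripts named in the same way were lower still. Footprints were at 50.2, 51.5 and 36.2 under the Eμ-Myc/+ label, and at 41.0, 61.9 and 25.0 under the Eμ-Myc/+ Prps2null label. The labelled groups overlap. The same 3 libraries were high as for Trp53, but the 6 libraries span far less. For Ccng1 footprints the log2 fold change was -0.12 (SE 0.35) by label and -0.62 (SE 0.26) without both.

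Bax, the pore-forming protein of the mitochondrial outer membrane, differed least. Its RNA stood at 23.4, 28.0 and 37.0 normalised CPM in Eμ-Myc/+ replicates 1, 2 and 3 and at 14.9, 15.7 and 23.2 in Eμ-Myc/+ Prps2null replicates 1, 2 and 3. The groups do not overlap, but only just, since the lowest Eμ-Myc/+ library and the highest Eμ-Myc/+ Prps2null library are nearly level. The log2 fold change of -0.72 (SE 0.24) was the 1814th lowest of the 2363, a smaller difference than their median. Bax footprints were at 101.4, 82.9 and 84.0 under the Eμ-Myc/+ label, and at 96.0, 101.1 and 87.2 under the Eμ-Myc/+ Prps2null label. No library stood apart, and the log2 fold change was 0.08 (SE 0.16) by label and -0.0076 (SE 0.18) without both.

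All 3 matched targets were lower in RNA with no overlap between the genotypes. The same held for 26.2% of all transcripts tested and 88.4% of those named through the translation efficiency lists. The median log2 fold change of the 3 targets was -1.32, beside -1.04 for transcripts named through those lists and 0.084 for all transcripts tested. The Bax value was -0.44 with library totals as the scaling and ran from -0.99 to -0.57 when 1 library was left out. In Ribo-seq, 0 of 9031 transcripts passed edgeR's test by label, so 0% were called lower and 0% higher; 47 had an unadjusted p under 0.05, and DESeq2 called 0 as well. The labelled groups of footprints did not overlap in 2.31% (lower) and 2.3% (higher) of transcripts, and they overlapped for all 5 matched genes.

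**Figure D2:**
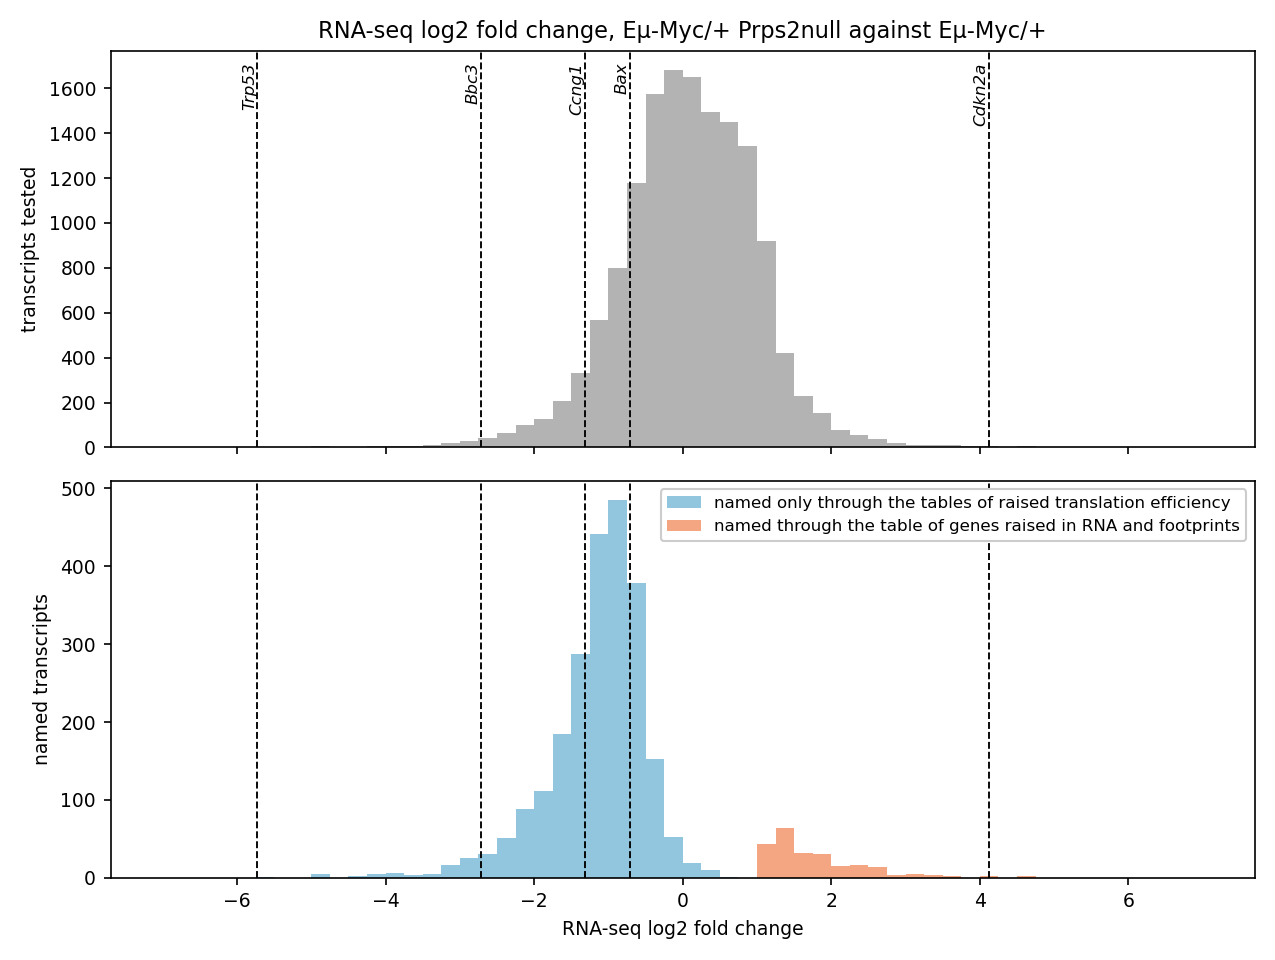
Histograms of the RNA-seq log2 fold change (Eμ-Myc/+ Prps2null against Eμ-Myc/+) over the 14682 transcripts tested (top) and over the named transcripts by the kind of list that named them (bottom), with dashed lines at the matched genes. Trp53 lies at the lower edge of all transcripts and Cdkn2a near the upper edge, while Ccng1 and Bax lie within the bulk of the transcripts named through translation efficiency lists, whose median is -1.04.

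A wider list of 35 other p53 target genes was read in the same way, of which 11 could be matched to a transcript. In RNA, 10 of the 11 were lower at an adjusted p under 0.05, against 18.5% of all transcripts tested and 80.3% of those named in the same way, and Gpx1, which encodes glutathione peroxidase, had a log2 fold change of -0.47 (SE 0.24) and did not pass. The groups did not overlap for any of the 11, as for 26.2% of all transcripts tested and 88.4% of those named in the same way. The median log2 fold change was -1.24, again beside -1.04 for transcripts named in the same way. The 4 with the largest differences were Notch1, Trp53inp1, Epha2 and Ctsd. Notch1, a receptor that sets lymphoid fate, stood at 79.3 to 91.5 normalised CPM in Eμ-Myc/+ and 15.5 to 26.5 in Eμ-Myc/+ Prps2null (log2 fold change -2.03, SE 0.22). Trp53inp1, a stress protein that promotes p53 activity and autophagy, stood at 294.6 to 332.1 and 77.2 to 100.5 (-1.87, SE 0.19). Epha2, an ephrin receptor kinase, stood at 12.1 to 18.3 and 1.33 to 8.68 (-1.86, SE 0.47), and Ctsd, the lysosomal protease cathepsin D, at 56.4 to 65.8 and 11.9 to 28.4 (-1.51, SE 0.25). The other 7, with log2 fold changes from -1.32 to -0.47, were Fdxr, Pcna, Rps27l, Pmaip1, Tap1, Steap3 and Gpx1.

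The footprints of these targets fell into different patterns. Epha2 had 18, 28 and 0 footprints under the Eμ-Myc/+ label and 0, 47 and 2 under the Eμ-Myc/+ Prps2null label, which leaves no usable fold change. Over the other 10 genes the median log2 fold change was -0.14 by label, with 6 under 0. Over the 2279 transcripts named through translation efficiency lists it was -0.071, with 62.2% under 0. Without both libraries the median of the 10 genes was -0.50, with 7 of 10 under 0. Over the 2270 transcripts named through those lists it was -0.37, with 75.2% under 0. Notch1 footprints were at 115.2, 122.3 and 41.0 under the Eμ-Myc/+ label, and at 41.0, 153.7 and 31.6 under the Eμ-Myc/+ Prps2null label, high in the same 3 libraries as for Trp53. Its log2 fold change was -0.31 (SE 0.68) by label and -1.70 (SE 0.20) without both. Footprints of Trp53inp1, Pmaip1, Rps27l, Pcna and Epha2 were also highest in those 3 libraries. Trp53inp1 had log2 fold changes of -0.48 (SE 0.59) by label and -1.66 (SE 0.15) without both. Those of Pmaip1, Rps27l and Pcna ran from -0.92 to -0.77 without both. Fdxr, Steap3, Gpx1, Ctsd and Tap1 did not show this split. Ctsd footprints were at 196.0, 226.3 and 220.4 under the first label and 185.9, 266.2 and 239.8 under the second, with log2 fold changes of 0.10 (SE 0.17) by label and 0.014 (SE 0.15) without both, although its RNA was lower by 1.51 on the log2 scale. Tap1, a peptide transporter of antigen presentation chosen here after its values were seen, was the 1 gene of the 11 whose labelled footprint groups did not overlap. It stood at 190.1, 194.0 and 199.7 under the Eμ-Myc/+ label and at 231.9, 239.3 and 230.4 under the Eμ-Myc/+ Prps2null label. Its log2 fold change was 0.26 (SE 0.12) by label, where it did not pass, and 0.27 (SE 0.13) without both, while its RNA was lower (-0.94, SE 0.20).

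Of 26 listed genes that control p53, 15 were matched. In RNA, 12 of the 15 were lower at an adjusted p under 0.05, against 18.5% of all transcripts tested. The share is close to the 80.3% of transcripts named in the same way. The median log2 fold change was -1.35, beside -1.04 for transcripts named in the same way. The 4 largest differences were all in ribosomal proteins that bind Mdm2 or, for Rpl26, also Trp53 mRNA. Rpl26 had a log2 fold change of -2.40 (SE 0.34), Rpl11 of -2.11 (SE 0.29), Rpl5 of -2.03 (SE 0.28) and Rps27a of -1.88 (SE 0.26). The ribosomal proteins Rps7 (-1.85, SE 0.26) and Rpl23 (-1.80, SE 0.23) came next. The study reports that its genes of raised translation are enriched for ribosomal proteins, and those lists named these genes. Whether binding to Mdm2 sets them apart from other ribosomal proteins was not tested. Atm, the kinase that signals DNA breaks to p53 (-0.46, SE 0.19), Atr, its relative for stalled replication (-0.30, SE 0.22), and Huwe1, a ubiquitin ligase for p53 (-0.35, SE 0.23), did not pass. In footprints the list median was -0.049 by label and -0.33 without both. For transcripts named in the same way it was -0.071 and -0.37.

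Downstream of p16Ink4a, 7 of 19 genes of the Cdk4 and Rb branch were matched. At an adjusted p under 0.05, 5 of the 7 were lower, against 18.5% of all transcripts tested and 80.3% of those named in the same way. The count was 2 with library totals or without Eμ-Myc/+ replicate 1, and 3 with the replicate block or without any 1 of Eμ-Myc/+ replicate 2, Eμ-Myc/+ replicate 3 and replicate 2 of Eμ-Myc/+ Prps2null. Cdk4, the kinase that p16Ink4a inhibits, stood at 161.4 to 171.5 normalised CPM in Eμ-Myc/+ and 57.6 to 83.6 in Eμ-Myc/+ Prps2null (log2 fold change -1.23, SE 0.19). The inhibitory kinase Wee1 (-0.83, SE 0.21), Cdk6 (-0.81, SE 0.17) and E2f2 (-0.54, SE 0.19) were the next in size. Rb1, which encodes the retinoblastoma protein itself, had -0.52 (SE 0.18), and Ccne1, which encodes cyclin E1 (-0.53, SE 0.22), and E2f3 (-0.43, SE 0.22) did not pass. The median of the branch was -0.54, closer to 0 than that of the transcripts named in the same way. Footprints of the branch had a median of 0.15 by label and -0.29 without both. For transcripts named in the same way these medians were -0.071 and -0.37.

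The Bcl2 family and caspase list had 16 genes, of which 3 were matched and 2 were lower in RNA at an adjusted p under 0.05. The shares were 18.5% of all transcripts tested and 80.3% of those named in the same way. The largest difference was in Bcl2l1, which encodes the anti-apoptotic protein Bcl-xL. Its RNA stood at 279.9, 262.2 and 257.8 normalised CPM in Eμ-Myc/+ replicates 1, 2 and 3 and at 7.77, 11.3 and 9.83 in Eμ-Myc/+ Prps2null replicates 1, 2 and 3. The log2 fold change of -4.77 (SE 0.23) was the 9th lowest of all transcripts tested. In the RefSeq annotation Cox4i2 and Gm32211 overlap the span of Bcl2l1, and Gm26368 overlaps that of Prps2. Whether reads of overlapping genes were separable was not tested. Bcl2l1 footprints were at 209.8, 172.8 and 13.8 under the Eμ-Myc/+ label, and at 10.1, 144.4 and 11.7 under the Eμ-Myc/+ Prps2null label, the split seen for Trp53. Their log2 fold change was -1.30 (SE 1.24) by label and -4.12 without both. Bcl2l11, which encodes the BH3-only protein Bim, had an RNA log2 fold change of -1.47 (SE 0.18). Bak1, a pore former like Bax, had -0.33 (SE 0.21) and did not pass. Genes that promote and genes that oppose apoptosis were both among those that were lower, a direction that the naming of the genes favours.

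**Figure D3:**
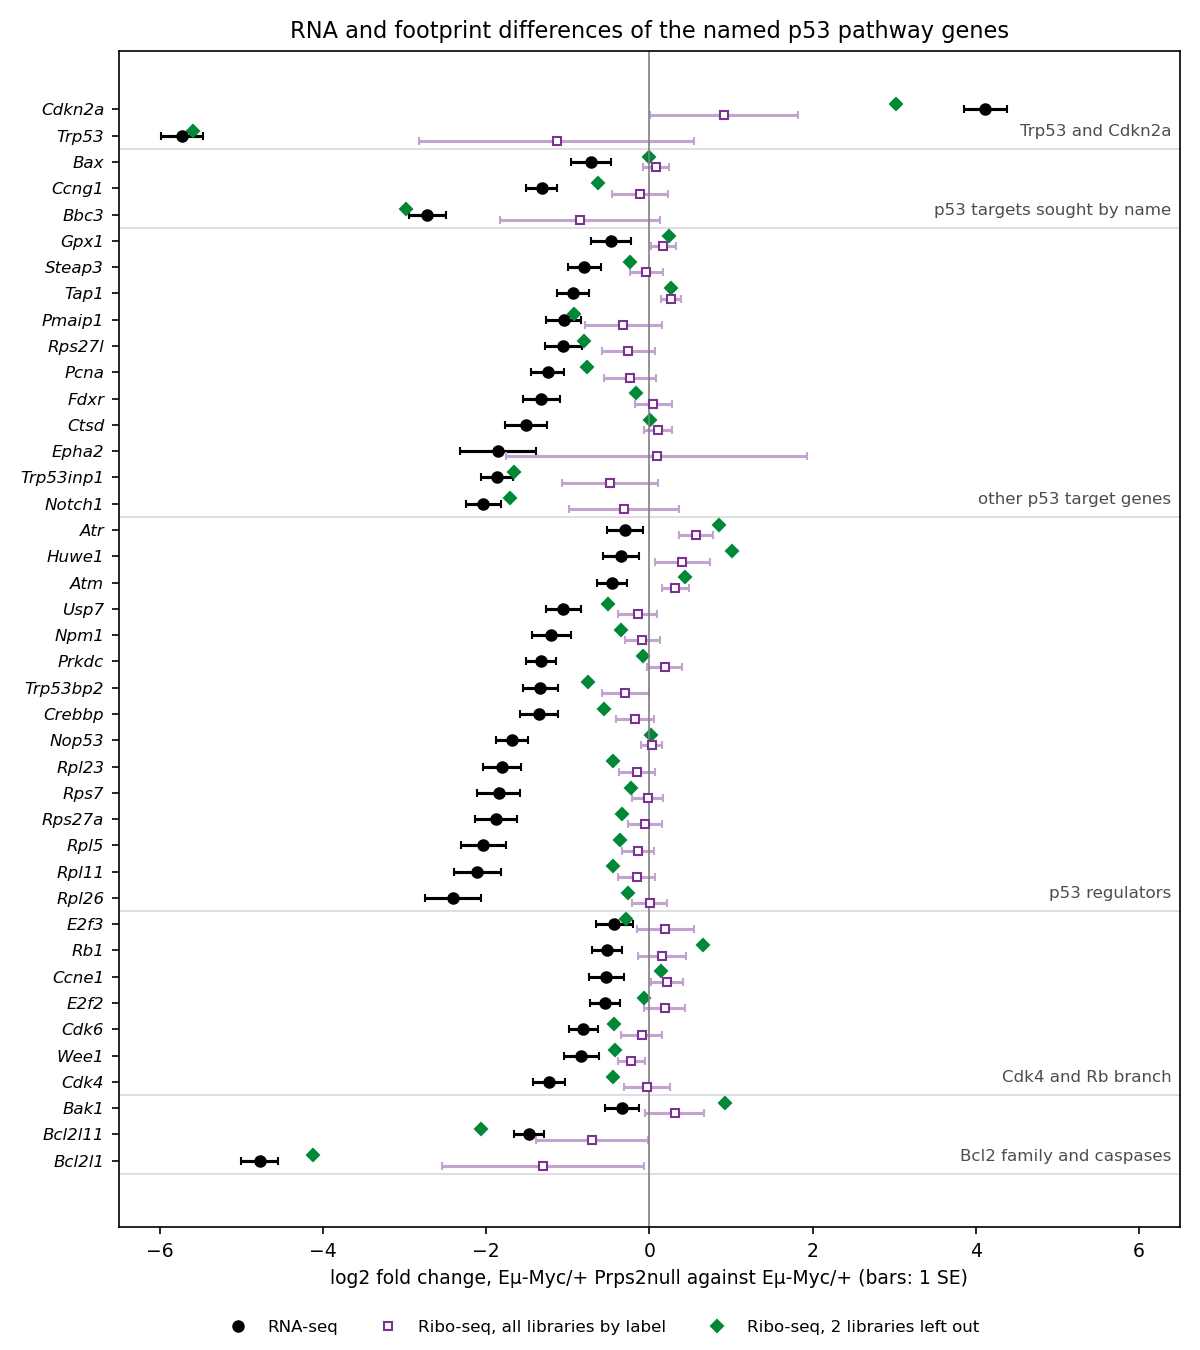
Log2 fold changes (Eμ-Myc/+ Prps2null against Eμ-Myc/+) of each matched gene of the p53 lists in RNA-seq (black circles, 1 SE), in Ribo-seq by label (open squares, 1 SE) and in Ribo-seq without the 2 libraries whose Prps2 footprints go against their labels (green diamonds, 2 against 2; none for Epha2, which has 0 counts in some libraries). RNA lies under 0 for every gene but Cdkn2a, a direction that the naming of the genes favours; the diamonds of Trp53, Bbc3 and Bcl2l1 lie near their RNA values and those of Bax and Ctsd near 0.

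Stromal and B cell markers differed with genotype in RNA. The 3 matched stromal markers (Col1a1, Col1a2 and Col3a1, of 5 listed) summed to 53.4 to 115.8 normalised CPM in Eμ-Myc/+ RNA and 10.6 to 23.1 in Eμ-Myc/+ Prps2null RNA. All 3 were lower at an adjusted p under 0.05, against 18.5% of all transcripts tested and 80.3% of those named through the translation efficiency lists, as these were. Their footprint sums ran from 70.9 to 237.5 by label in Eμ-Myc/+ and from 41.6 to 560.2 in Eμ-Myc/+ Prps2null, and replicate 2 under the latter label had the highest value. The footprint log2 fold changes of the 3 stromal markers ran from 0.83 to 1.01 by label and from -1.21 to -0.49 without both. The 2 matched myeloid markers (Lyz2 and Csf1r, of 6) overlapped between genotypes in RNA, at 19.5 to 39.3 and 11.7 to 27.0. Lyz2 alone was lower at an adjusted p under 0.05 (-0.90, SE 0.32), against -0.19 (SE 0.39) for Csf1r. Lyz2 did not pass with TMM scaling or library totals. Nor did it pass without any 1 of Eμ-Myc/+ replicate 2, Eμ-Myc/+ replicate 3 and replicate 3 of Eμ-Myc/+ Prps2null. In footprints both myeloid markers ran the other way, with log2 fold changes of 0.47 and 0.72 by label and 0.71 and 1.49 without both. No T cell or erythroid marker was matched. The 5 matched B cell markers (of 11) were detected in every library, and none of the markers was at 0. RNA sums of the B cell markers ran from 2168.1 to 3324.8 normalised CPM in Eμ-Myc/+ and from 358.7 to 747.0 in Eμ-Myc/+ Prps2null. At an adjusted p under 0.05, 4 of the 5 were lower and 1 higher, against 18.5% and 14.7% of all transcripts tested. Cd79a, the B cell receptor component, stood at 400.0 to 541.5 and 110.8 to 237.2 in RNA. Cd74 and Rag1 were lower too, at log2 fold changes of -2.83 and -2.85, as was Blnk at -1.04, and Ms4a1 (CD20) was higher at 3.09. These markers were named through the same lists, and the part of other cell types in the values of Trp53, Cdkn2a and the p53 targets was not tested.

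**Figure D4:**
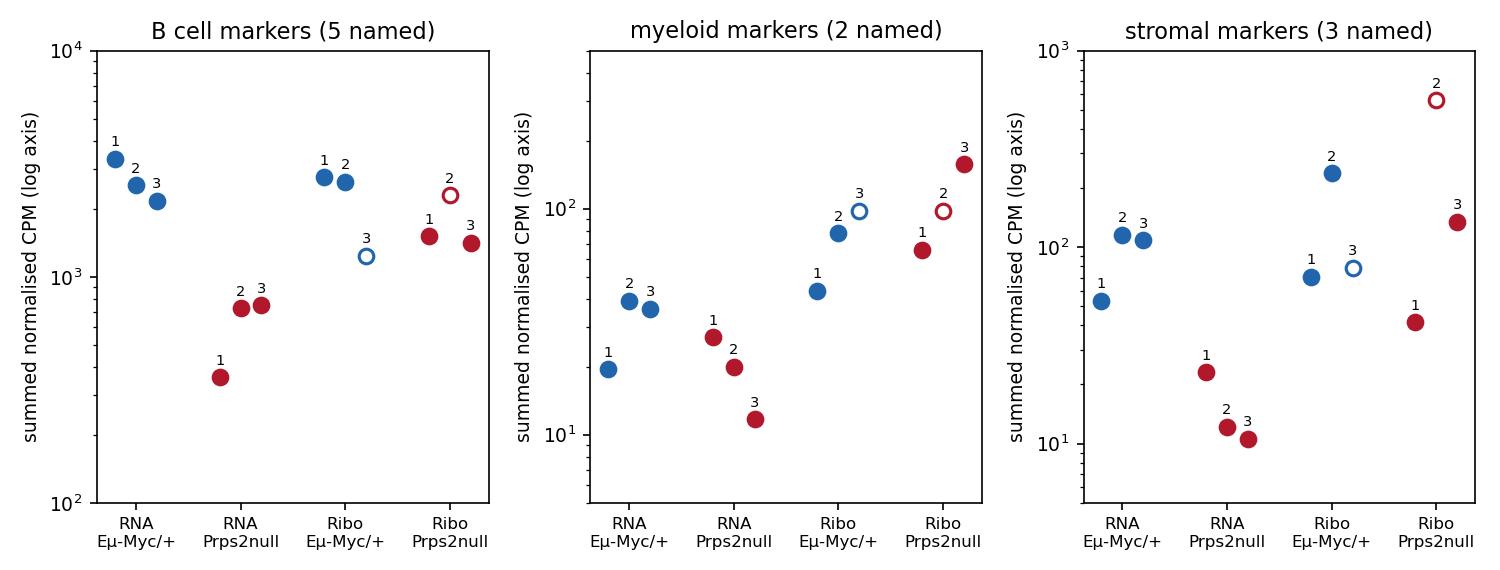
Summed normalised CPM (log axis) of the matched B cell, myeloid and stromal markers in each library, by labelled genotype, with replicate numbers; open points are the 2 Ribo-seq libraries whose Prps2 footprints go against their labels. B cell RNA sums are 2168.1 to 3324.8 in Eμ-Myc/+ and 358.7 to 747.0 in Eμ-Myc/+ Prps2null. Stromal RNA sums are 53.4 to 115.8 in Eμ-Myc/+ and 10.6 to 23.1 in Eμ-Myc/+ Prps2null. The largest stromal footprint sum, 560.2, is in an open point.

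The named transcripts whose profiles lay nearest to Trp53 were found by the root mean square difference of log2(normalised CPM + 1), centred within each assay, over the 12 libraries and 8987 transcripts. They were Aldh1b1 (0.47), Lef1 (0.50), Bahcc1 (0.64), Sertad4 (0.72) and Bcl2l1 (0.75). Aldh1b1, a mitochondrial aldehyde dehydrogenase, had an RNA log2 fold change of -4.83 and a Ribo-seq one of -6.40 without both libraries, and Lef1, a transcription factor of early B and T cells, had -4.89 and -4.64. For Cdkn2a the nearest were Ms4a1 (0.51), Reln (0.52), S100a6 (0.55), Fam102b (0.56) and Srpk3 (0.57). S100a6, a calcium-binding protein, had an RNA log2 fold change of 4.14 and a Ribo-seq one of 3.28 without both, close to the 4.12 and 3.02 of Cdkn2a. All of these profiles share the same 12 libraries, and likeness over them is a description.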

How the data were processed

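Each assay covered 3 lymphoma samples per genotype, 12 libraries in all. The authors deposited raw counts per transcript for RNA-seq and expected counts for Ribo-seq. For Ribo-seq reads the study describes adapter trimming (cutadapt 2.3) and removal of duplicate molecules and of ribosomal and transfer RNA. Reads of both assays were aligned to the longest coding isoform (Bowtie2 2.3.5, per the submitters' processing notes, which name mm10). A correction for stalling leaves 54.3% of Ribo-seq values not whole. The strand setting of the counting is not given in the sources used here.

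Expected counts were rounded. Each assay was tested over all its transcripts with edgeR 4.0.16 (R 4.3.3, limma 3.58.1), median-of-ratios scaling, filterByExpr (minimum count 10) and Benjamini-Hochberg adjusted p under 0.05. Standard errors were computed by dividing each fold change (log2) by the root of its F statistic. Alternatives were TMM, library totals, DESeq2 1.42.0, no filter, 10 counts in every library, a replicate block, and leaving out libraries. Leaving out Epha2 from the Ribo-seq target median was added after seeing the data.

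Genes and lists were chosen with earlier results of these data known. Per list, up to 4 matched genes with the largest RNA difference are named, plus those that did not pass or that a sentence needs. Names come only from the study's supplementary lists, whose order and values were not used. Promoter windows are from RefSeq (GRCm38.p6), and all 5 matched genes had an entry. A gene of 1 list is not reported here and was left out of its counts. No length correction or translation efficiency test was made.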

Additional observations from a re-analysis of the deposited data

How the results depend on the processing

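The RNA-seq count of 4875 changed transcripts ranged from 2724 (without Eμ-Myc/+ replicate 1) to 5345 when a library was left out, and was 3243 without Eμ-Myc/+ replicate 3. Library totals shifted the median RNA log2 fold change from 0.084 to 0.37, gave 1668 lower and 3851 higher transcripts against 2712 and 2163, and moved Trp53 to -5.45. Leaving out a library kept the RNA log2 fold change of Trp53 between -5.90 and -5.58 and that of Cdkn2a between 3.81 and 4.35. In Ribo-seq, leaving out 1 library gave 0 changed transcripts each time, and leaving out both libraries whose Prps2 footprints go against their labels gave 3248 (1619 lower, 1629 higher). The Ribo-seq log2 fold change of Trp53 ran from -5.01 to -0.55 with 1 library left out and was -5.59 without both, and that of Cdkn2a ran from 0.48 to 2.57 and was 3.02. With 1 library left out, the Ribo-seq value of Ccng1 ran from -0.47 to 0.17 and the median of the other p53 targets from -0.51 to 0.10. Directions reversed in Ribo-seq for Ccng1 (0.17 without Eμ-Myc/+ Prps2null replicate 3), Bax (-0.0076 without both) and the median of the 11 other p53 targets (Epha2 included, -0.039 by label and -0.14 without Epha2), which was 0.025 without Eμ-Myc/+ replicate 2, 0.10 without Eμ-Myc/+ Prps2null replicate 1 and 0.0072 without Eμ-Myc/+ Prps2null replicate 3. The cause was not tested. Bbc3 has no Ribo-seq value under the filter of 10 counts in every library. Same-numbered libraries of the 2 genotypes were not taken as pairs. The correlations of their deviations were -0.17, -0.030 and -0.0025 in RNA-seq and -0.62, 0.75 and 0.71 in Ribo-seq for numbers 1, 2 and 3, so not every one was above 0.1. Numbers 2 and 3 each include a library whose Prps2 footprints go against its label, and in Ribo-seq only the pair of number 2 correlated best with its own number. The replicate block gave 3992 calls for RNA and 0 for footprints, where 156 had an unadjusted p under 0.05. The 10 to 16 Trp53 reads and 16 to 22 Cdkn2a reads in the lower RNA-seq groups limit how precisely those levels are known.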
